A study of Mus musculus with 2 samples.

Results

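The genes described here encode the chemokines and their receptors, measured by RNA-seq in cells isolated from fibrotic mouse liver. Members were protein-coding genes whose symbol in the GENCODE M21 annotation begins with the chemokine or receptor stems Ccl, Cxcl, Cx3cl1, Xcl1, Ccr, Cxcr, Cx3cr1, Xcr1 or Ackr, followed by a number where the family is numbered. The members described are 59 of 38320 gene entries, namely 37 ligands and 22 receptors, of which 4 are atypical receptors. The naming rule itself used no measured value, although these genes were taken up with earlier results of the data known. Fold changes are given for the 47 members with a mean of at least 1 FPKM (mapped fragments divided by transcript length and by library depth), which were 29 ligands and 18 receptors.

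Chemokines are small secreted proteins that guide leukocytes along concentration gradients, and they bind G protein-coupled receptors on the migrating cell. In injured liver they are made by Kupffer cells, endothelial cells, hepatocytes and stellate cells, and they draw monocytes, neutrophils and lymphocytes into the tissue. Many inflammatory chemokines are shared among several receptors, whereas homeostatic chemokines often pair with a single receptor, and the atypical receptors bind chemokines and remove them without signalling through G proteins.

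Adult male mice on the C57/Bl6 strain received carbon tetrachloride (CCl4), a hepatotoxin, for 5 weeks to produce liver fibrosis. Foxf1fl/fl mice carried LoxP sites around the first exon of Foxf1 in both alleles and had no Cre, and they are called control below. αSMACreER;Foxf1-/- mice carried the same floxed alleles and a tamoxifen-inducible Cre under the α-smooth muscle actin promoter, so deletion was possible only in cells that had used that promoter, and they are called knockout below. Tamoxifen was given repeatedly during the injury to activate the Cre, and the sources used here do not state plainly whether the control mice of this pool received it. The study asked which genes change in hepatic stromal cells, meaning stellate cells and myofibroblasts, when the transcription factor FOXF1 is lost. A liver cell suspension was plated for 2 hours at 37°C, the non-adherent cells were washed away, and RNA of the adherent cells was pooled within each genotype into 1 library. The sources used here do not give the number of mice behind each pool. With 1 library per genotype no difference below has a replicate check, no test between genotypes was possible, and the intervals given are approximate 95% intervals for counting error only. They rest on a rough depth of 9.73 M reads for the control and 11.4 M for the knockout library, estimated from the spacing of low values. Foxf1 itself was not analysed here.

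The label of the cells as stromal was compared with markers. The study reports that its purified cells had Des and Acta2 expression and were without markers of hepatocytes and Kupffer cells. Markers of both these cell types were found in the libraries here. Several defining genes of stellate cells and myofibroblasts were low, with Des, the desmin gene, at 1.70 FPKM in control and 3.29 in knockout cells, Acta2, encoding α-smooth muscle actin, at 7.77 and 5.65, and Pdgfrb at 1.03 and 1.43, whereas the matrix genes of the same list were higher, with Col1a1 at 70.2 and 103, Col3a1 at 115 and 164, Dcn at 127 and 186 and Timp1 at 230 and 229. The macrophage gene Lyz2 had 3682 and 3395 FPKM, and the 10 Kupffer cell markers summed to 9029 and 6968. The hepatocyte gene Alb had 2292 and 912. Lyz2 and Alb were thus above each of the stellate cell and myofibroblast genes named here in both libraries, which goes against a purely stromal label, while other macrophage and hepatocyte markers were lower, such as F13a1 at 10.9 and 9.52 and Cps1 at 16.5 and 10.1. In such bulk samples fewer cells of a type cannot be told apart from less RNA per cell.

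Chemokines are named for the spacing of the conserved cysteines near the start of the mature protein. The coding stretches below show the spacing in 3 members of different classes, from GENCODE M21 transcripts, with the cysteine codons in capitals and 3 flanking codons on each side.
Cxcl10, CXC class: acggtccgcTGCaacTGCatccatatc
Ccl4, CC class: cccacttccTGCTGTttctcttac
Cx3cl1, CX3C class: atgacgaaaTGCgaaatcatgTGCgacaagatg
The codons between the capitals numbered 1 in Cxcl10, 0 in Ccl4 and 3 in Cx3cl1. These genes stand at the top of the CXC class, at the top of the CC class and as the only CX3C ligand.

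A few ligand transcripts were among the most abundant RNAs in both libraries, and the sum over the ligands was far above that over the receptors. The ligands summed to 17580 FPKM in control and 13571 in knockout cells, which was 2.33% and 2.03% of all FPKM. After scaling the libraries to the same median gene, the ligand sum was 1.32-fold lower in knockout cells. The receptors summed to 491 and 605 FPKM, or 0.0651% and 0.0908% of all FPKM, and their scaled sum was 1.21-fold higher in knockout cells. The sums of ligands and receptors thus differed between the genotypes in opposite directions, and each sum is weighted to its most abundant genes. Among the receptors, Cxcr4 alone had 130 FPKM in control and 199 in knockout cells.

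**Figure D1:**
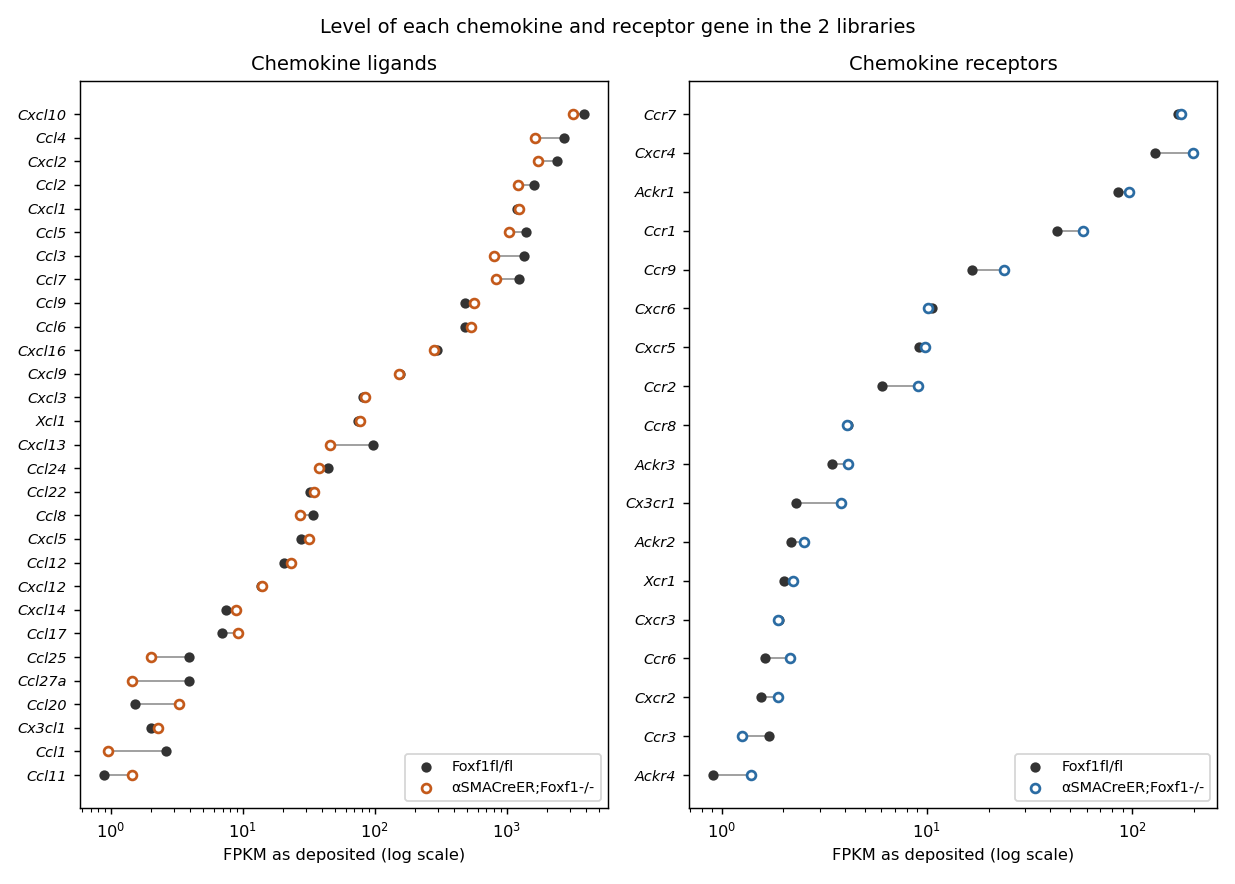
FPKM of the 29 ligands (left) and 18 receptors (right) with a mean of at least 1 FPKM, on log axes, ordered by mean level. Filled points are the Foxf1fl/fl library and open points the αSMACreER;Foxf1-/- library; the highest ligand, Cxcl10, stood at 3828 and 3165 FPKM and the receptor with the highest mean, Ccr7, at 168 and 173.

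A gene was counted as higher or lower when it differed by at least 1.5-fold on the scale of log2(FPKM + 0.1) after median scaling, a scale that understates changes of genes near 0. Of the 47 members, 4 were higher in knockout cells, against a background of 12.8% of the 12670 genes tested, and 7 were lower, against 13.2%. The higher members were the receptors Cx3cr1 and Cxcr4 and the ligands Ccl20 and Ccl11. The lower members were all ligands: Ccl3, Ccl4, Ccl7, Cxcl13, Ccl25, Ccl1 and Ccl27a. Read against these shares of all genes, the lower count was slightly above and the higher count below the background, so neither count sets the members apart. The median log2 fold change was -0.05 over the ligands, of which 13 lay above 0 and 16 below, and 0.20 over the receptors, of which 14 lay above 0 and 4 below, beside 0.00 over all tested genes. The sides of this split depended on scaling: with equal FPKM sums, which moved the median of all genes to 0.20, 8 members were higher and 4 lower. The shares of all genes past 1.5-fold were not computed for that scaling. With median scaling, the counting interval lay above 0 for 6 of the 18 receptors and below 0 for none. Among the 29 ligands it lay above 0 for 3 and below 0 for 13. The share of all genes with such intervals was not computed. Intervals narrow as reads increase, so these counts do not set the members apart.

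**Figure D2:**
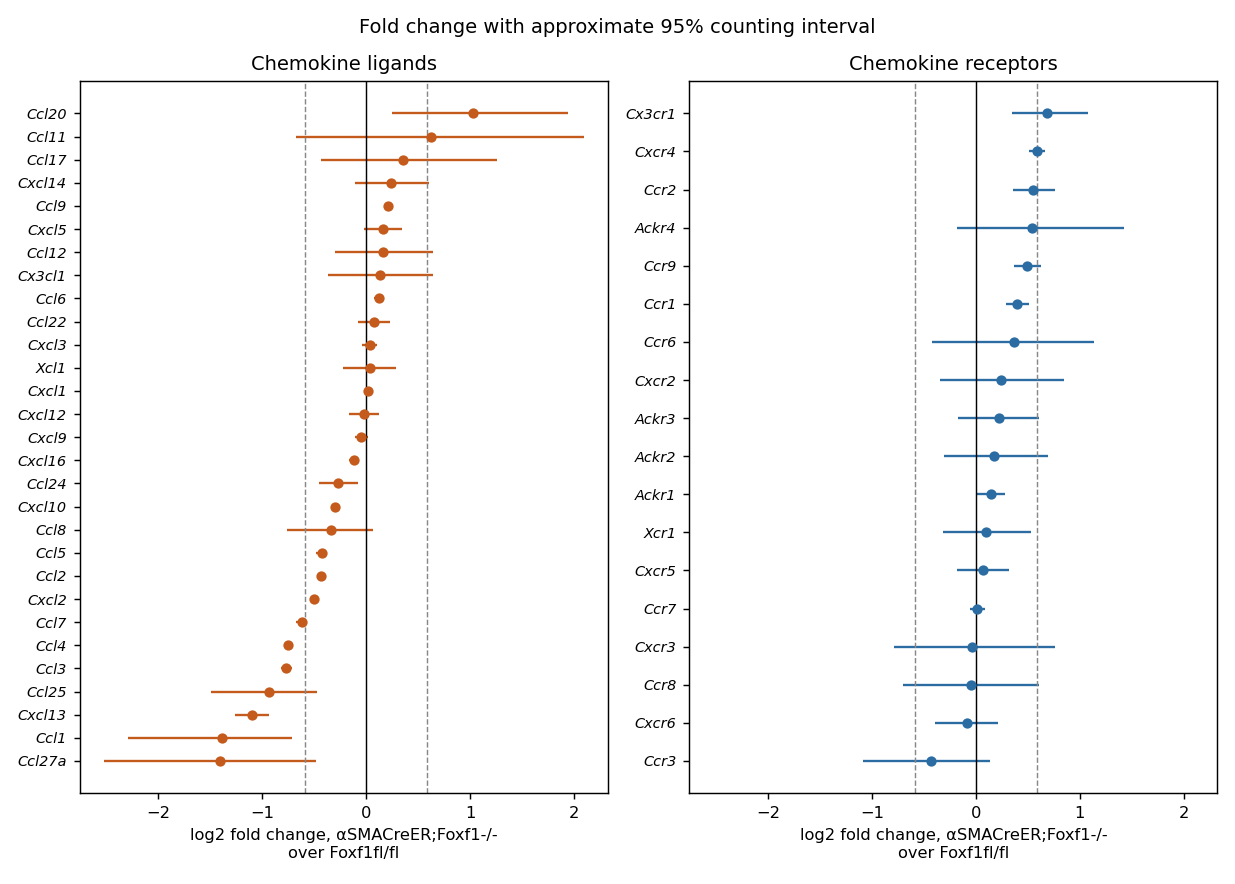
Log2 fold change of αSMACreER;Foxf1-/- over Foxf1fl/fl for each of the 29 ligands (left) and 18 receptors (right), with approximate 95% intervals for counting error. Dashed lines mark 1.5-fold; 7 ligands lie beyond the lower line and no receptor does, and 2 receptors and 2 ligands lie beyond the upper line.

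Transcript length ran along with the fold change across all genes. When the 12670 genes were divided into 20 groups by the longest annotated transcript, the median log2 fold change ran from -0.41 in the group with a median length of 802 bases to 0.49 in the longest group. Ligand genes were short, with a median of 1440 bases, and receptor genes had a median of 2839.5 bases, beside 3068 for all tested genes. After the median of each length group was subtracted, the ligand median was 0.00, with 15 ligands above 0 and 14 below, and the receptor median was 0.24, with 16 above 0 and 2 below. In those values 6 members were at least 1.5-fold higher, against 9.94% of all genes, and 4 were lower, against 11.1%. With each gene's median transcript length in place of the longest, a choice added once values were known, the ligand median was -0.13, with 12 ligands above 0, and the receptor median was 0.18, with 12 receptors above 0. The receptor median was thus above 0 with either length, and the ligand median depended on which length was taken. The part of length in the differences between these 2 libraries was not tested further, and values with the longest-transcript trend removed, called length removed below, are given beside each member they move across the threshold.

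**Figure D3:**
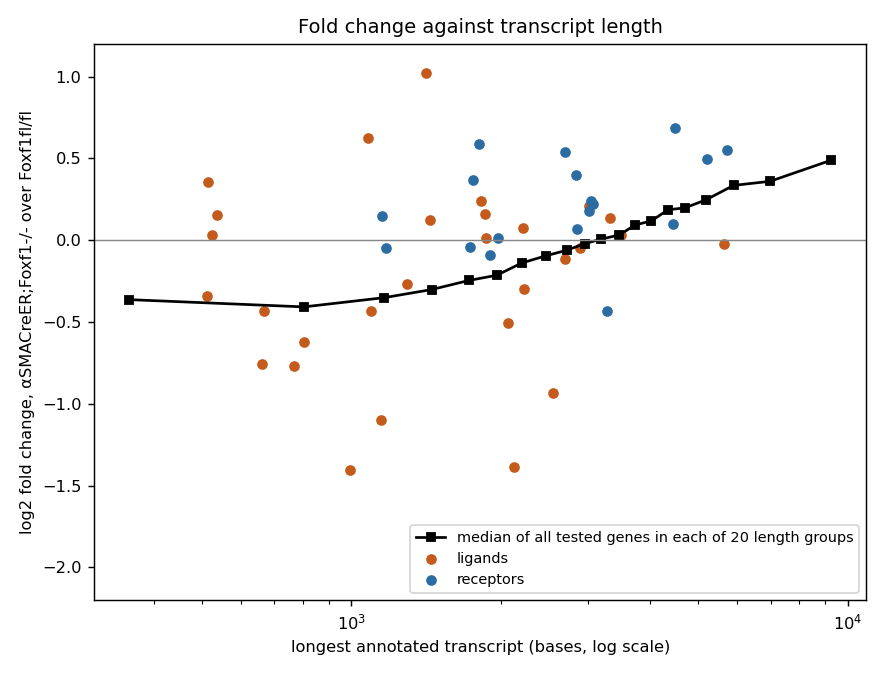
Log2 fold change of each tested member against the length of its longest annotated transcript in bases (log axis), with the median of all tested genes in each of 20 length groups as black squares. Ligands are orange and receptors blue; the black line climbs from -0.41 at 802 bases to 0.49 in the longest group, and most ligands sit at its short end.

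Most of the ligand RNA came from a few inflammatory genes. Altogether 8 ligands exceeded a mean of 1000 FPKM over both libraries, a limit set after the values were seen, and together they made up 89.4% of all ligand FPKM in control and 85.7% in knockout cells. Of these, 7 had a log2 fold change below 0, with a median of -0.47. At least 1.5-fold lower were 3, beside 13.2% of all tested genes, and the share among genes of like abundance was not computed. With length removed the median was -0.19 and 7 still lay below 0. The 3 genes past 1.5-fold, Ccl3, Ccl4 and Ccl7, then stood at -0.36, -0.35 and -0.22, within it. The other 21 ligands were split, 12 above 0 and 9 below, with a median of 0.03.

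Ccl3 and Ccl4, the macrophage inflammatory proteins, attract monocytes and T cells and are neighbours on chromosome 11. Ccl3 (chr11:83647844-83649355, minus strand, GRCm38) had 1348 FPKM in control and 806 in knockout cells, a log2 fold change of -0.77 (-0.82 to -0.72). Ccl4 (chr11:83662584-83664683, plus strand) had 2703 and 1630 FPKM, a log2 fold change of -0.76 (-0.80 to -0.72). Both were lower by nearly the same factor, 1.70-fold and 1.69-fold. With the trend of the longest transcripts removed the changes were -0.36 and -0.35, within 1.5-fold, and with that of the median transcripts removed they were -0.68 and -0.70, past it.

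Among the monocyte-attracting ligands of Ccr2, Ccl2 and Ccl7 had lower values in knockout cells, and the direction for Ccl12 was not resolved. Ccl7 had 1246 FPKM in control and 824 in knockout cells, a log2 fold change of -0.62 (-0.67 to -0.57) that became -0.22 with length removed. Ccl2, the main monocyte chemoattractant, had 1601 and 1206 FPKM, a log2 fold change of -0.44 that stayed within 1.5-fold and was -0.08 with length removed. Ccl12 had 20.4 and 23.2 FPKM, from about 67 and 90 reads, a log2 fold change of 0.16 (-0.30 to 0.65). Of the 3 genes, the abundant Ccl2 and Ccl7 had the lower value in knockout cells, and the interval of the much scarcer Ccl12 included 0. Ccl5, which attracts T cells and monocytes, had 1384 and 1046 FPKM, a log2 fold change of -0.43 (-0.48 to -0.38) that was -0.02 with length removed.

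Ccl6 and Ccl9, rodent ligands of Ccr1 that myeloid cells express, lie between Ccl5 and Ccl3 on the chromosome and went the other way. Ccl9 had 481 FPKM in control and 567 in knockout cells, a log2 fold change of 0.21 (0.18 to 0.24). Ccl6 had 480 and 532 FPKM, a log2 fold change of 0.12 (0.07 to 0.17). Both stayed within 1.5-fold. Within the run of Ccl5, Ccl9, Ccl6, Ccl3 and Ccl4 (chr11:83525778-83664683), 3 genes had the lower and 2 the higher value in knockout cells. The neighbouring run of Ccl2, Ccl7, Ccl11, Ccl12, Ccl8 and Ccl1 (chr11:82035571-82305690) held 4 below 0 and 2 above.

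The neutrophil-attracting ligands of Cxcr2 also differed among themselves. Cxcl2 had 2399 FPKM in control and 1722 in knockout cells, a log2 fold change of -0.50 (-0.52 to -0.48). Cxcl1 had 1203 and 1236 FPKM, a log2 fold change of 0.01 (-0.02 to 0.04). Cxcl3 had 81.2 and 84.6 FPKM, and Cxcl5 had 27.5 and 31.4. Cxcl2 alone of these 4 had a counting interval below 0, and its 1.42-fold difference remained within the threshold. All 4 lie in the same run on chromosome 5 (chr5:90759360-90905938), together with Cxcl15, which was listed at 0 in both libraries.

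The interferon-induced ligands of Cxcr3, which attract activated T cells and NK cells, were near the top of the range. Cxcl10 (chr5:92346638-92348889, minus strand) ranked 13 of 12670 genes in control and 18 in knockout cells, with 3828 and 3165 FPKM and a log2 fold change of -0.30 (-0.32 to -0.29). Its exons overlap Art3, and the counting is not stated to use strand, so reads of such neighbours cannot be told apart. Cxcl9 had 155 and 153 FPKM, a log2 fold change of -0.05. Neither gene reached 1.5-fold.

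Promoter windows of 300 bases, 250 before and 50 after the start, were read from RefSeq (GRCm38.p6) for the 46 members that the table holds, to set sequence beside these levels. Both strands were searched for the NF-κB consensus, for the interferon-response letters GAAANNGAAA and for the forkhead letters TGTTTAC and TGTTTGC, and the motifs were chosen after the expression values had been seen. Windows are shown for the neighbours Cxcl1 and Cxcl2, which differed in fold change, for Cxcl10, the most abundant member, for Ccl3, a lower ligand, and for Cxcr4, a higher receptor. Matches are in capitals, and matches that overlap run together.
Cxcl10 (chr5:92348840-92349139, minus strand): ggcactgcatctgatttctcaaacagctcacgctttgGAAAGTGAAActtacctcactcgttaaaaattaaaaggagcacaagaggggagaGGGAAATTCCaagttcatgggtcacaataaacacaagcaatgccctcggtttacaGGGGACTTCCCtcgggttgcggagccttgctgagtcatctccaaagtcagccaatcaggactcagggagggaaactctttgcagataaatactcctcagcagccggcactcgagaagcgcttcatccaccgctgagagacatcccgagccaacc
Cxcl1 (chr5:90890995-90891294, plus strand): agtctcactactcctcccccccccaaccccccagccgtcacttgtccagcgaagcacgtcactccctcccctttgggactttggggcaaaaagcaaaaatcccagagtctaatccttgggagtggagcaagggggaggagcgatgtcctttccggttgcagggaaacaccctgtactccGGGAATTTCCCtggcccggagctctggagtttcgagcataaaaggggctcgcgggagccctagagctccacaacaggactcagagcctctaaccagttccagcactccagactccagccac
Cxcl2 (chr5:90903649-90903948, plus strand): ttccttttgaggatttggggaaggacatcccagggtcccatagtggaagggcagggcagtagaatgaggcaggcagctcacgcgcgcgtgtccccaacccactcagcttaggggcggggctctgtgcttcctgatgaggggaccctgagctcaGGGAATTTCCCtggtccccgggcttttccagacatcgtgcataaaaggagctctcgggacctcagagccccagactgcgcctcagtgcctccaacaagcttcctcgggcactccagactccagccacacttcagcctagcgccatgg
Ccl3 (chr11:83649329-83649628, minus strand): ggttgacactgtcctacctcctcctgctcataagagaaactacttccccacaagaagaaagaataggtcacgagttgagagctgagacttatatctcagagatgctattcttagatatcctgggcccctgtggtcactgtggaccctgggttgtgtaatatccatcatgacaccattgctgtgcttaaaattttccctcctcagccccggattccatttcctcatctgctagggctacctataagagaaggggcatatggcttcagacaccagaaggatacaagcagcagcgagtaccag
Cxcr4 (chr1:128592250-128592549, minus strand): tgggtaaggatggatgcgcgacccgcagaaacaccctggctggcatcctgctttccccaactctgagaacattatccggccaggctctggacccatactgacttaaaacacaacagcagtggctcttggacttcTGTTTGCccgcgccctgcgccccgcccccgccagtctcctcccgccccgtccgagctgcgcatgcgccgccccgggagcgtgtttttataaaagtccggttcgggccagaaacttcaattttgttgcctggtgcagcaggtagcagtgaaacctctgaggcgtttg
The capitals in Cxcl10 are a GAAANNGAAA match followed by NF-κB matches, and those in Cxcl1 and Cxcl2 are the same NF-κB letters. The Ccl3 window holds none of the letters searched, and the capitals in Cxcr4 are TGTTTGC. The NF-κB consensus stood in 10 of the 46 member windows (21.7%) and in 8.46% of all 32851 windows of that length, and in 7 of 21 windows of tested ligands, those of Ccl1, Ccl20, Ccl9, Cxcl1, Cxcl10, Cxcl2 and Cxcl3. GAAANNGAAA stood in 3 member windows, of Cxcl10, Cxcl14 and Ccl19, and in 3.44% of all windows. TGTTTAC stood in no member window and in 3.65% of all, and TGTTTGC stood in that of Cxcr4 and in 5.07% of all. A match is a run of letters and was not examined for binding. Of the tested ligands with the NF-κB letters, Cxcl2, Cxcl10, Cxcl1, Cxcl3 and Ccl9 stood at -0.50, -0.30, 0.01, 0.03 and 0.21. The scarce Ccl20 and Ccl1 stood at 1.03 and -1.39, and a relation between the letters and the fold changes was not tested.

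Several ligands of lymphocytes and dendritic cells were found at intermediate levels, and Cxcl13 stood apart from the others. Cxcl13 (chr5:95956951-95961068, plus strand), the B cell chemoattractant that binds Cxcr5, had 96.6 FPKM in control and 45.9 in knockout cells, a log2 fold change of -1.10 (-1.26 to -0.94) and of -0.75 with length removed. It was the only CXC ligand past 1.5-fold in either direction. Cxcl16, which is made as a membrane-bound protein and attracts Cxcr6-bearing T cells, had 298 and 279 FPKM, a log2 fold change of -0.12, with exons that overlap Zmynd15. Xcl1, which attracts the cross-presenting dendritic cells that carry Xcr1, had 74.0 and 77.0 FPKM, with exons that overlap Gm20743. Ccl22 and Ccl17, the ligands of Ccr4 on regulatory and helper T cells, had 32.5 and 34.8 FPKM and 6.96 and 9.12 FPKM, with log2 fold changes of 0.07 and 0.36, the latter 0.72 and past 1.5-fold with length removed. The adjacent Ccl22, Cx3cl1 and Ccl17 on chromosome 8 all lay above 0, within 1.5-fold before that adjustment. Each counting interval included 0, at -0.08 to 0.23, -0.37 to 0.64 and -0.44 to 1.26, and Ccl17 had only about 21 and 33 reads.

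Ccl24 and Ccl11, eotaxins that attract eosinophils through Ccr3, stood at very different levels and had opposite signs before any length adjustment. Ccl24 had 44.3 FPKM in control and 37.5 in knockout cells, a log2 fold change of -0.27 (-0.46 to -0.08) that turned to 0.08 with length removed. Ccl11 had 0.879 and 1.44 FPKM, from about 8 and 15 reads, and its log2 fold change of 0.63 had an interval from -0.68 to 2.09, so that the difference was not detectable at this depth although the gene counts as higher. Ccl8, the ligand of mouse Ccr8 on helper T cells, had 34.0 and 27.3 FPKM, a log2 fold change of -0.34 (-0.76 to 0.07) that was 0.02 with length removed.

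The homeostatic ligand Cxcl12, which retains haematopoietic cells through Cxcr4 and is made by mesenchymal cells, was level between the genotypes at 13.8 FPKM in each, a log2 fold change of -0.02 that was -0.36 with length removed. Cxcl14, a constitutively made chemokine, had 7.40 and 8.90 FPKM, a log2 fold change of 0.24. Cx3cl1, or fractalkine, a membrane-tethered adhesion ligand, had 2.01 and 2.26 FPKM. None of these 3 ligands reached 1.5-fold.

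The remaining ligands past 1.5-fold were scarce. Ccl20 (chr1:83116766-83119167, plus strand), which attracts Ccr6-bearing lymphocytes, had 1.52 FPKM in control and 3.26 in knockout cells, from about 18 and 45 reads, a log2 fold change of 1.03 (0.25 to 1.94) that was the largest positive value among the 47 tested members. Ccl1, a ligand of Ccr8, had 2.61 and 0.955 FPKM, from about 49 and 21 reads, a log2 fold change of -1.39 (-2.29 to -0.72). Ccl25, which guides T cells to the gut through Ccr9, had 3.88 and 2.02 FPKM, a log2 fold change of -0.93 (-1.49 to -0.48). These 3 genes kept their side of the threshold with length removed. Ccl27a, known for attracting T cells to skin, had 3.88 and 1.43 FPKM from about 30 and 13 reads, a log2 fold change of -1.40 (-2.53 to -0.48). Ccl25 overlaps Elavl1 and Ccl27a overlaps Il11ra1 in exons, and Ccl27a has the near-identical copy Ccl27b, listed at 0, so both values are uncertain. The read numbers and intervals assume the longest transcript, of 2126 bases for Ccl1, 2549 for Ccl25, 1417 for Ccl20 and 996 for Ccl27a. Their median transcripts have 611, 962.5, 794 and 552 bases, for which the reads would be fewer and the intervals wider.

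The 8 ligands under the filter added almost nothing. Ccl21b, Ccl26, Ccl27b and Cxcl15 were listed at 0 in both libraries. The lymphoid chemokine Ccl21a had 0.277 FPKM in control and 0.683 in knockout cells, Ccl19 had 0.220 and 0, Cxcl17 had 0.176 and 0, and Ccl28 had 0 and 0.0251. Ccl21a and Ccl21b are near-identical copies, so reads could have been split between them.

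The inflammatory receptors Ccr1, Ccr2 and Ccr3 did not all go the same way. Ccr1, a receptor of monocytes and neutrophils, had 43.1 FPKM in control and 57.9 in knockout cells, a log2 fold change of 0.40 (0.29 to 0.51). Ccr2, which marks inflammatory monocytes, had 6.06 and 9.09 FPKM, a log2 fold change of 0.55 (0.36 to 0.76). Ccr3, the eosinophil receptor, had 1.71 and 1.26 FPKM, a log2 fold change of -0.43 (-1.09 to 0.14). Ccr1 and Ccr2 had intervals above 0 but were within 1.5-fold, and Ccr3 was the only CC receptor besides Ccr8 below 0. Ccr1, Ccr3 and Ccr2 lie in 1 run with Ccr9, Cxcr6, Xcr1 and Ccr1l1 on chromosome 9 (chr9:123678439-124113557), where 4 of 6 tested genes were above 0, with a median of 0.25 and of 0.17 with length removed.

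Cxcr4 (chr1:128588199-128592293, minus strand), the receptor for Cxcl12, had 130 FPKM in control and 199 in knockout cells, a log2 fold change of 0.59 (0.51 to 0.67), just past 1.5-fold. With length removed the change was 0.83. Cxcr4 was the second most abundant receptor in control cells and the most abundant in knockout cells. Cx3cr1, the fractalkine receptor of patrolling monocytes and resident macrophages, had 2.30 and 3.82 FPKM, a log2 fold change of 0.68 (0.35 to 1.08) that was 0.50 with length removed, and its exons overlap Gm33858. Of the receptors counted as higher, Cxcr4 stayed and Cx3cr1 did not stay past 1.5-fold with length removed.

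Most lymphoid homing receptors had similar values in the 2 libraries, some from few reads. Ccr7, which brings dendritic cells and naive T cells to lymph nodes, was the most abundant receptor in control cells at 168 FPKM and had 173 in knockout cells, a log2 fold change of 0.01. Cxcr5, which directs B cells to follicles, had 9.12 and 9.76 FPKM, with exons that overlap Bcl9l. Cxcr6 and Cxcr3, both found on effector T cells, had 10.6 and 10.2 FPKM and 1.90 and 1.89 FPKM. Their intervals were -0.39 to 0.21 and -0.79 to 0.76, and that of Cxcr3 reached past 1.5-fold on both sides. Ccr9, the gut-homing receptor, had 16.5 and 23.8 FPKM, a log2 fold change of 0.49 (0.37 to 0.62), with exons that overlap Slc6a20a. Ccr9 was thus the member of this group with an interval above 0, and it was within 1.5-fold.

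Other receptors of lymphocytes, dendritic cells and neutrophils were low. Ccr8, carried by regulatory T cells, had 4.12 FPKM in control and 4.06 in knockout cells, Xcr1 had 2.02 and 2.22, Ccr6 had 1.62 and 2.16, and the neutrophil receptor Cxcr2 had 1.55 and 1.88. Their log2 fold changes ran from -0.05 for Ccr8 to 0.37 for Ccr6, and each interval included 0. With length removed Ccr6 stood at 0.61, past 1.5-fold. Cxcr1, Ccr4, Ccr10 and Ccr1l1 were under the filter, at no more than 0.799 FPKM in any library.

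All 4 atypical receptors were tested and lay above 0, within 1.5-fold, with a median of 0.20. The counting interval lay above 0 for Ackr1 only (0.02 to 0.28). It included 0 for Ackr2 (-0.31 to 0.70), Ackr3 (-0.17 to 0.61) and Ackr4 (-0.18 to 1.43). Ackr1, which binds many inflammatory chemokines on red cells and venules, had 85.4 FPKM in control and 96.5 in knockout cells, a log2 fold change of 0.15, and overlaps Cadm3. Ackr3, which takes up Cxcl12, had 3.46 and 4.13 FPKM, and Ackr2, which degrades inflammatory CC chemokines, had 2.19 and 2.53. Ackr4, which removes Ccl19, Ccl21 and Ccl25, had 0.911 and 1.40 FPKM, a log2 fold change of 0.54 that was 0.60 and past 1.5-fold with length removed, and overlaps Acad11.

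Ligands were then set beside their receptors, using 43 pairs taken from general knowledge of the mouse system, of which 28 had both genes tested here. In 11 pairs the ligand lay below 0 and the receptor above, in 9 both lay above, in 7 both lay below, and in 1 the ligand lay above and the receptor below. Pairs share genes and are not independent. The pair counts use signs before length adjustment and without regard to intervals. Ccr8, Cxcr3 and Cxcr6, receptors of pairs with both genes below 0, stood at -0.05, -0.04 and -0.09, with intervals that included 0. With length removed 6 members changed sign, namely Ccl24, Ccl8, Ccr8, Cxcr3, Cxcr6 and Xcr1, and the pairs were not recounted. The ligand had the higher FPKM in both libraries in 22 pairs and the receptor in 4.

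For Ccr1, the ligands Ccl3, Ccl5, Ccl6, Ccl7 and Ccl9 summed to 4939 FPKM in control and 3775 in knockout cells, which was 115 and 65.2 times the FPKM of the receptor. For Ccr2, the ligands Ccl2, Ccl7 and Ccl12 summed to 2867 and 2053 FPKM, or 473 and 226 times the receptor. For Ccr1 and Ccr2 alike the ratio of ligand to receptor transcripts was lower in knockout cells. The ratios here and in the next paragraph were not adjusted for transcript length. With length removed Ccl2, Ccl7 and Ccl12 stood at -0.08, -0.22 and 0.52, and Ccr2 at 0.22. Ccl3, Ccl5, Ccl6 and Ccl9 stood at -0.36, -0.02, 0.42 and 0.23, and Ccr1 at 0.46. The ligands of Cxcr2 stood at 2396 and 1637 times the receptor and those of Cxcr3 at 2091 and 1760 times.

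Some homeostatic receptors were more abundant than their ligands. Cxcl12 was 0.106 times Cxcr4 in control and 0.0695 times in knockout cells. Ccl25 was 0.235 and 0.0850 times Ccr9. The tested receptor with the lowest ratio was Ccr7, whose ligands Ccl19, Ccl21a and Ccl21b summed to 0.497 and 0.683 FPKM, or 0.00296 and 0.00396 times Ccr7. Cxcl13 stood at 10.6 and 4.70 times Cxcr5, a lower ratio in knockout cells, while the log2 fold change of Cxcr5 was 0.07.

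**Figure D4:**
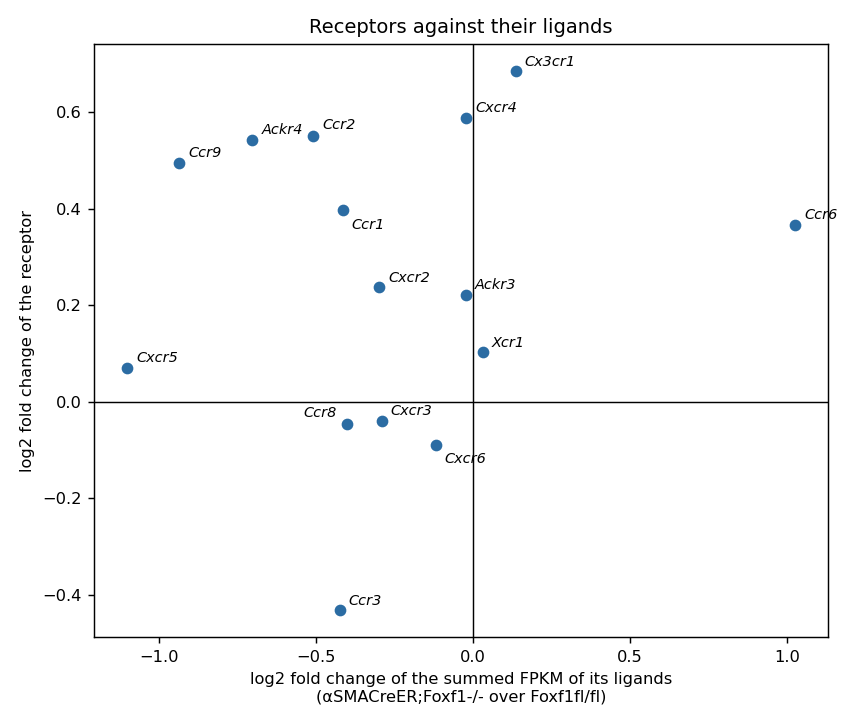
Log2 fold change of each tested receptor that has a tested ligand among the pairs (vertical axis) against that of the summed FPKM of its ligands (horizontal axis), αSMACreER;Foxf1-/- over Foxf1fl/fl. Ccr9 lies at the upper left, with its ligand Ccl25 at -0.93 and the receptor at 0.49, and Ccr6 at the far right, where the ligand Ccl20 is at 1.03. No value is adjusted for transcript length.

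Genes that carry the signal from chemokine receptors, such as G protein subunits, arrestins, kinases and Rac activators, were read from a list of 46, of which 45 were tested. Among them 3 were at least 1.5-fold higher in knockout cells and 1 was lower, with a median of 0.07 and 28 above 0, against the 12.8% and 13.2% of all genes given above. Arrb1, encoding β-arrestin that desensitizes the receptors, had 7.97 FPKM in control and 15.0 in knockout cells, Pik3cg, the lipid kinase of migrating leukocytes, had 2.67 and 4.83, and the receptor kinase Grk3 had 6.99 and 10.9. Tiam1, an activator of Rac, had 4.16 and 2.58 FPKM. With length removed Arrb1, Pik3cg and Grk3 stood at 0.51, 0.47 and 0.25, all within 1.5-fold, Tiam1 stood at -1.06, and the median of the list was 0.02. The abundant inhibitory subunit Gnai2 had 307 and 278. Most of the shared signalling genes therefore stayed within 1.5-fold.

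Cell type markers moved in the same comparison, and their part in the chemokine values was not tested. The counts below are to be read against the 12.8% of all genes that were higher and the 13.2% that were lower. Neutrophil markers were lower in knockout cells for 8 of 9 genes, with sums of 2364 and 981 FPKM and Ly6g at 9.82 and listed at 0. Hepatocyte markers were lower for 10 of 10, with sums of 4641 and 1963. Kupffer cell markers, given beside Ccl3, Ccl4 and Ccl7, which macrophages can make, were lower for 1 of 10, Clec4f, with a median of -0.35 and sums of 9029 and 6968. Monocyte and monocyte-derived macrophage markers, given beside Ccr2 and Cx3cr1, which such cells can carry, were higher for 1 of 9, Itgam, with a median of 0.03 and sums of 5531 and 5365. T and NK cell markers were higher for 2 of 9 and lower for 1, with sums of 141 and 156, B cell markers were higher for 1 of 6, with sums of 65.7 and 78.4, and dendritic cell markers were higher for 1 of 6, with sums of 51.0 and 53.8. Endothelial markers had 0 of 9 past 1.5-fold, with sums of 1173 and 1071. Stellate cell and myofibroblast markers had 2 of 10 higher, with sums of 572 and 718, and cholangiocyte markers had 1 of 5 lower, with sums of 61.3 and 52.5. Ly6g in the knockout library was the only marker of these lists at 0. With length removed the Kupffer cell median was -0.13 and the monocyte and macrophage median 0.31. The stellate cell and myofibroblast median went from 0.51 to 0.26 and the endothelial median from 0.17 to -0.09. The neutrophil and hepatocyte medians stayed low, at -0.98 and -1.20.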

How the data were processed

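Gene expression was measured by RNA-seq in 2 libraries, 1 per genotype. TopHat and Cufflinks were used by the authors on single-end reads (mm10 in the submitters' processing notes), who deposited FPKM for each Ensembl gene. A separate quantification by the authors, normalized with DESeq, was not used here. No read counts were used, so depth was estimated from the steps of low FPKM values; 47.7% and 49.3% of these lay within 0.1 of a whole read, so read numbers and intervals are rough and assume reads on the longest transcript. FPKM of the αSMACreER;Foxf1-/- library was divided by 1.02, the median ratio over 11871 genes with at least 1 FPKM in both libraries. Fold changes used a pseudocount of 0.1 FPKM, genes with a mean of at least 1 FPKM and a threshold of 1.5-fold. Names and coordinates came from GENCODE M21 (GRCm38), and all 59 members overlapped their annotated gene. Named genes were the members, Ccrl2, Pf4, Ppbp, cell type markers and the extremes of the signalling list, and Gnai2 and Cxcl11 were added after their values were seen. Members and lists were chosen with earlier results of these data known. Foxf1, 1 further gene that the naming rule finds, and protein sequences are not reported here. The calculation was tested on simulated data. Calculations ran under Python 3.11.15 with pandas 2.3.3, numpy 2.4.6 and scipy 1.17.1, and figures were drawn with matplotlib 3.10.9. Alternatives changed the pseudocount, scaling, filter, threshold, handling of transcript length and inclusion of members with overlapping exons.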

Additional observations from a re-analysis of the deposited data

How the results depend on the processing

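Among the 47 tested members, 4 counted as higher and 7 as lower. Shares of all genes were computed only for this setting and with the longest-transcript trend removed. The other counts below therefore have no background beside them. The higher count became 1 with a pseudocount of 1, 8 with equal FPKM sums, 7 without the filter, 1 with a mean of at least 5 FPKM and 1 at 2-fold. The lower count became 4 with equal FPKM sums, 10 without the filter, 4 with a mean of at least 5 FPKM, 3 at 2-fold and 4 with the length trend removed. Leaving out members whose exons overlap another gene, an alternative not planned beforehand, gave 3 higher and 5 lower. The ligand median of -0.05 became 0.15 with equal FPKM sums, a scaling that moved the median of all tested genes to 0.20, and the receptor median stayed between 0.15 and 0.39 under the alternatives run. A pseudocount of 1 brought Ccl11, Cx3cr1 and Cxcr4 within 1.5-fold. Equal FPKM sums did so for Ccl3, Ccl4 and Ccl7 and took Ackr4, Ccr1, Ccr2 and Ccr9 past it. Removing the length trend brought Ccl3, Ccl4, Ccl7 and Cx3cr1 within 1.5-fold and took Ackr4, Ccl17 and Ccr6 past it. With median transcript lengths, an alternative added after the data were seen, Ccl7 and Cx3cr1 came within 1.5-fold, Ccr3 passed it, and 12 receptors lay above 0. The cause of these shifts was not tested. No paired analysis was possible because there was 1 library for each genotype, and for that reason no library could be left out. Low depth limits the members with few reads, such as Ccl11, Ccl20, Ccl27a and Ccl1.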

Other observations

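A few chemokine genes fall outside the naming rule. Ccrl2, an atypical receptor that binds chemerin without signalling, had 301 FPKM in control and 302 in knockout cells, a level above that of every receptor of the rule in both libraries. Pf4, platelet factor 4, had 64.5 and 51.4 FPKM, a log2 fold change of -0.35, and Ppbp, another platelet chemokine, had 1.54 and 2.24, a log2 fold change of 0.49. Cxcl11, a ligand of Cxcr3 that GENCODE M21 classes as a polymorphic pseudogene, had 20.1 and 21.7 FPKM, a log2 fold change of 0.09. None of these 4 genes reached 1.5-fold before adjustment for transcript length, and with the longest-transcript trend removed Ppbp stood at 0.84, past it, and Pf4 at 0.05.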
